A study of Mus musculus with 15 samples.

Results

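The mouse microRNAs mmu-miR-324-5p and mmu-miR-324-3p, called miR-324-5p and miR-324-3p here, are the mature strands cut from the 2 arms of 1 hairpin, mir-324, and their levels were described arm by arm in 15 mouse small RNA libraries. They were taken by name from the count tables and make up 2 of the 1558 mature miRNA names with a read in any library. Both arms had reads in all 15 libraries. The study prepared the libraries with AQ-seq, a small RNA protocol with randomized adapter ends that lowers ligation bias, from commercial total RNA of mouse tissues, with 1 library per tissue or stage. Brain, spinal cord and eye are called the nervous libraries here, the embryos of day 11, 15 and 17 the embryo libraries, and heart, kidney, liver, lung, salivary gland, smooth muscle, spleen, stomach and testis the other adult libraries. No treatment or genotype is named for any of them. The strain, age and sex of the mice, and how many were pooled for each RNA, were not stated in the labels.

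A miRNA precursor is cut by Drosha and then by Dicer into a duplex, and an Argonaute protein keeps 1 strand of it. Which arm is kept depends on where the cuts fall and on how firmly each end of the duplex is paired. The terminal uridylyl transferases TUT4 and TUT7 can add uridines to the 3′ end of a precursor, and the study's title links such uridylation to a switch between arms. In human cells miR-324-5p is known as a repressor of the Hedgehog pathway genes GLI1 and SMO. In cultured neurons and mouse models of epilepsy it has been studied as a repressor of the potassium channel Kv4.2.

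Both mature sequences are shown because each arm recognises its targets with its own seed, bases 2 to 8, which stand in capitals below. They come from RefSeq, build GRCm38.p6, 5′ to 3′.
miR-324-5p: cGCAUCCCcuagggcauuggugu
miR-324-3p: cCACUGCCccaggugcugcu

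The hairpin lies on the plus strand of chromosome 11, at 70012043 to 70012131 (89 bases), with the 5p strand at 70012060 to 70012082 and the 3p strand at 70012095 to 70012114. In the GENCODE annotation of GRCm38 it overlaps a UTR exon of Dvl2, a Wnt pathway gene on the same strand, and Acadvl, a gene of fatty acid oxidation on the opposite strand. The 5p strand has 23 bases with 60.9% G or C, and the 3p strand has 20 bases with 70.0%. Both begin with C, and 12 bases separate them. The seeds differ, and neither occurs as the seed of another of the 1738 mature miRNAs in the RefSeq table. No other entry of that table shares a stretch of 18 bases with either arm. Of the 1558 names counted here, 1326 have a sequence in that table, and the others could not be compared. In a minimum free energy fold of the hairpin (-36.90 kcal per mol), 17 of the 23 bases of the 5p strand and 15 of the 20 bases of the 3p strand were paired, and 3 of the first 4 bases of each. The counts per name do not say where a read began or ended, so strands with shifted ends cannot be told apart.

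Testis was the shallowest library, with 148052 counted reads, and brain the deepest, with 3161463. Testis had 30 reads of the 5p arm and 44 of the 3p arm, whereas the other libraries had 82 to 1771 and 150 to 1114. Levels are given as reads per 1000000 counted reads (RPM), with an exact Poisson 95% interval that covers counting error only. Lists of marker miRNAs were highest in the library of their own tissue for brain (neuronal), spinal cord (oligodendrocyte), eye, heart, liver, spleen and testis, whereas the embryos, lung and salivary gland had no list of their own and kidney ranked 3 in its list. The library labelled smooth muscle had the highest sum of the gut and kidney epithelium markers (279410 RPM), whereas stomach had the highest of the smooth muscle markers (264930 RPM). In bulk tissue, fewer cells of a type and less RNA per cell cannot be told apart.

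miR-324-5p was highest in the embryos. Its level was 928 RPM at day 11 (interval 879.5 to 977), 589 RPM at day 15 (557 to 622) and 675 RPM at day 17 (644 to 707). Brain followed with 528 RPM (503 to 554) and spinal cord with 394 RPM (368 to 422). These 5 libraries lay above all others, and each of them differed from its neighbour in the order beyond counting error. Eye, at 179 RPM (163 to 196), was apart from the other nervous libraries and lay among the other adult tissues.

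In the other adult libraries miR-324-5p ranged from 47.2 RPM in liver to 203 RPM in testis, with a median of 133 RPM in smooth muscle. Testis (interval 137 to 289), kidney with 197 RPM (175 to 221) and eye could not be ordered at this depth. Lung had 142 RPM (129 to 156), spleen 136 RPM (121 to 153), smooth muscle 133 RPM (116 to 151), salivary gland 121 RPM (106 to 137) and stomach 105 RPM (85.3 to 128). No neighbours among these 5 differed beyond counting error. Heart, with 55.7 RPM (47.0 to 65.5), and liver (37.6 to 58.6) formed the low end and did not differ from each other beyond it, with a heart to liver ratio of 1.18 (0.893 to 1.56). The highest level, at day 11, was 19.6-fold the lowest.

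miR-324-3p was also highest in the 11-day embryo, with 656 RPM (616 to 699). The 15-day embryo had 374 RPM (348 to 401) and the 17-day embryo 395 RPM (371 to 419.8). Brain had 352 RPM (332 to 374), spinal cord 230.0 RPM (209.9 to 252) and eye 185 RPM (168 to 202). Below day 11 the order was less sharp than for the 5p arm, since 17-day embryo, 15-day embryo, brain, testis and stomach formed a run in which no neighbours differed beyond counting error.

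In the other adult libraries the 3p arm ranged from 57.2 RPM in heart (48.4 to 67.1) to 297 RPM in testis (216 to 399), with a median of 159.7 RPM in smooth muscle. Stomach had 295 RPM (261 to 332), which was above spinal cord by a ratio of 1.28 (1.10 to 1.49). Kidney had 227 RPM (203 to 253), spleen 180.0 RPM (163 to 198.5), salivary gland 157 RPM (140.4 to 175), lung 139.7 RPM (127 to 154) and liver 96.8 RPM (82.7 to 113). Over all libraries the highest level was 11.5-fold the lowest. Of the 14 pairs of neighbours in the order, 5 differed beyond counting error for the 3p arm and 7 for the 5p arm.

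**Figure D1:**
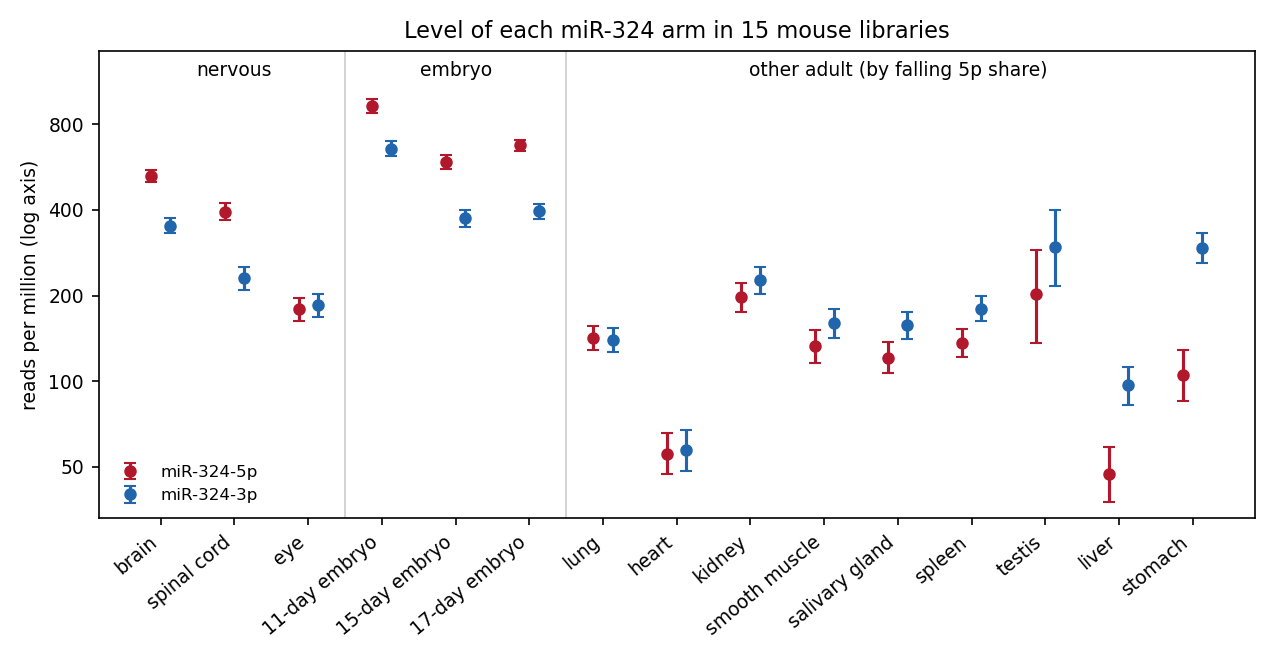
Level of each arm of mir-324 in each library, in RPM on a log axis, with exact Poisson 95% intervals. Other adult libraries are ordered by falling 5p share. The 5p arm lies above the 3p arm in brain, spinal cord and the 3 embryos (528 against 352 RPM in brain), both lie close together in eye, lung and heart, and the 3p arm lies above the 5p arm in stomach (295 against 105 RPM).

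Over the 15 libraries the SD of the log2 level was 1.29 for the 5p arm and 0.88 for the 3p arm, against 0.66 for the log2 ratio of 5p to 3p. The arms varied together on this scale, with a Pearson r of 0.882 and a Spearman rho of 0.868 between their log2 RPM values (n = 15 libraries, which share the library total as the divisor of both arms). Without the 11-day embryo and liver, farthest from the median of the 5p level, r was 0.818, and without stomach it was 0.941. Over the 9 other adult libraries the SDs were 0.73 for the 5p arm and 0.76 for the 3p arm, and r was 0.785. Among 234 hairpins with both arms past the filter on low counts, the median r between arms, on log2(RPM + 1), was 0.912, and 147 hairpins had a higher r than mir-324.

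**Figure D2:**
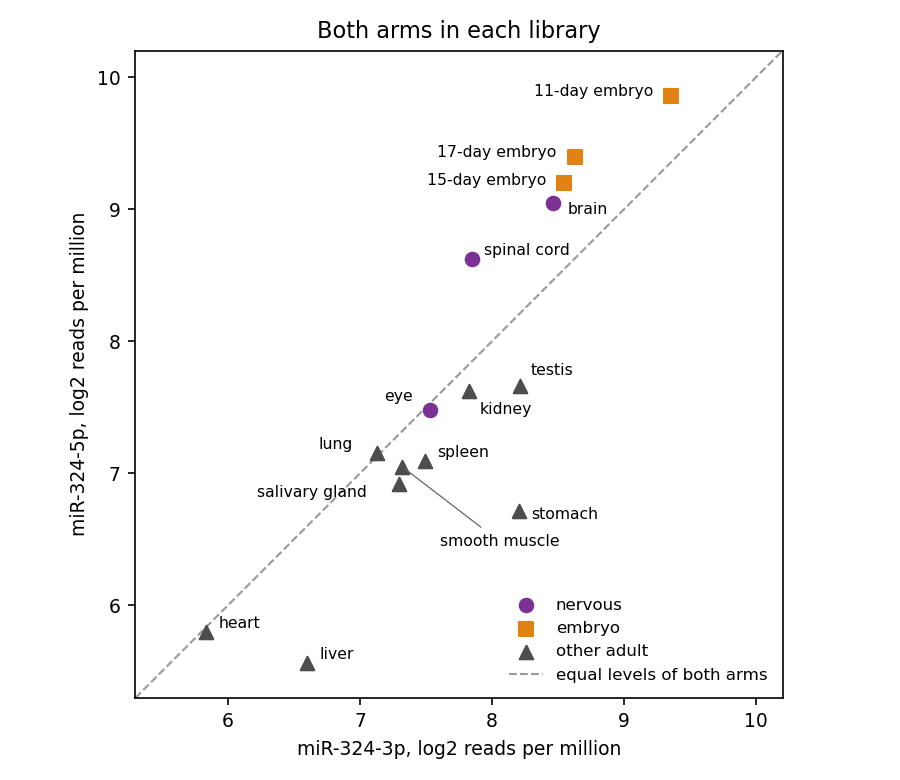
Level of miR-324-5p against miR-324-3p in each of the 15 libraries, both in log2 RPM, with the dashed line at equal levels. Brain, spinal cord and the 3 embryos lie above the line, eye, lung and heart on it, and stomach lies farthest below it, at a log2 ratio of -1.49.

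The co-variation depended on how the libraries were scaled. A few names took many of the reads in some libraries, such as miR-122-5p with 311550 RPM in liver and the 4 striated muscle markers with 291410 RPM in heart, and their part in the scaling was not tested. Scaling by the trimmed mean of M values (TMM) uses the level of most names in place of the total, and its factors ran from 0.449 in heart and 0.503 in liver to 1.77 in testis and 1.92 to 2.25 in the embryos. In TMM-scaled counts (CPM, counts per 1000000 of the scaled library size) the span between the highest and the lowest library was 4.97-fold for the 5p arm and 2.74-fold for the 3p arm. The SDs of the log2 level became 0.68 and 0.37, and r between the arms became 0.312, or 0.315 with the relative log expression (RLE) scaling of edgeR. The ratio of the arms within a library does not depend on the scaling.

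On the TMM scale brain had the most miR-324-5p of all libraries, with 467 CPM, followed by the 11-day embryo with 414 CPM, the 17-day embryo with 319 CPM, the 15-day embryo with 307 CPM, spinal cord with 291 CPM, smooth muscle with 232 CPM and eye with 217 CPM. Liver remained lowest with 93.9 CPM. Stomach had the most miR-324-3p on this scale, with 349 CPM, and heart the least, with 127 CPM. The 3p arm had 293, 195 and 187 CPM in the embryos of day 11, 15 and 17, and 312, 169.8 and 224 CPM in brain, spinal cord and eye, against a median of 207 CPM and a range of 127 to 349 CPM in the other adult libraries. Embryo and nervous values of the 3p arm thus lay within the other adult range on this scale, though its top was stomach alone. Brain and the 11-day embryo ranked 2 and 3 of the 15 libraries, behind stomach. With RLE scaling brain had 319 CPM of the 3p arm, above the other adult maximum of 315 CPM in stomach. On the TMM scale, embryo and nervous values of the 5p arm lay above the other adult range of 93.9 to 232 CPM in 5 of 6 libraries, the exception being eye.

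The class comparison asked which arm differed in the classes that hold the libraries with a high 5p share. That share was 60.0% in brain, 63.1% in spinal cord and 58.6 to 63.1% in the embryos. The nervous class was not uniform, since eye had 49.2%, within the other adult range of 26.3 to 50.4%. The hairpin was chosen with its arm usage in these libraries known. The p-values of its arms, in nervous libraries and in embryos, are therefore no independent evidence of a difference. Each tissue has 1 library, so that the tests set classes of tissues against each other. In the nervous libraries miR-324-5p rose, with 325 ± 129 CPM (SD, n = 3) against 158 ± 43.9 CPM in the other adult libraries (SD, n = 9). The log2 fold change was 1.04 ± 0.38 (SE), with an edgeR quasi-likelihood adjusted p of 0.042 over 693 names. At this threshold 41.0% of names were called in either direction and 28.4% as higher, and 240 names had a larger log2 fold change, so that such calls were common. miR-324-3p had 235 ± 71.7 CPM (SD, n = 3) against 221 ± 62.5 CPM (SD, n = 9). Its log2 fold change of 0.09 ± 0.40 (SE, edgeR adjusted p = 0.86) had a 95% interval of -0.75 to 0.93, which leaves room for a change of either sign. With totals in place of TMM, the values were 1.50 for the 5p arm (adjusted p = 0.022) and 0.48 for the 3p arm (adjusted p = 0.47), where 40.7% of names were called and 32.6% as higher.

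The nervous call on the 5p arm lay close to the threshold and was lost in 9 of the 15 fits that left out 1 library. Without brain the log2 fold change was 0.60 (edgeR adjusted p = 0.35). In the other 8 of these fits it was 0.91 to 1.04, and the adjusted p was 0.052 to 0.14. All 3 nervous libraries also had the highest sums of the 7 neuronal markers, with 123100 to 237890 RPM against 342 to 3688 RPM in the other adult libraries and 47037 to 84621 RPM in the embryos, and all 7 markers had reads in every library. Eye had 123100 RPM of these markers beside its low 5p level. The part of cell types in the arm levels was not tested.

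In embryos miR-324-5p rose too, with 346 ± 58.6 CPM (SD, n = 3) against 158 ± 43.9 CPM in the other adult libraries (SD, n = 9). The log2 fold change was 1.13 ± 0.38 (SE), with an edgeR adjusted p of 0.025, in a comparison where 44.2% of the 693 names were called and 27.0% as higher. In it, 244 names had a larger log2 fold change. All 3 embryos lay above all 9 other adult libraries for the 5p arm, in RPM and on the TMM scale. For the 3p arm this held in RPM but not on the TMM scale. miR-324-3p had 225 ± 59.1 CPM (SD, n = 3) against 221 ± 62.5 CPM (SD, n = 9). Its log2 fold change was 0.02 ± 0.40 (SE, edgeR adjusted p = 0.97, 95% interval -0.82 to 0.87).

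Here the scaling decided the call on the 3p arm. Scaled to totals, miR-324-3p was higher in embryos by 1.38 ± 0.49 (SE, edgeR adjusted p = 0.029) and miR-324-5p by 2.50 ± 0.48 (SE, adjusted p = 0.00041), where 47.5% of names were called and 41.4% as higher. The median log2 fold change of all names moved to 1.38 with that scaling, against 0.10 with TMM. Relative to this median the 3p arm stood at -0.001 with totals and at -0.08 with TMM, and the 5p arm at 1.12 and 1.03. The call on the 5p arm was lost without any 1 of the 3 embryos (adjusted p 0.10 to 0.18), without brain (0.064) or without spinal cord (0.079). The nervous and embryo comparisons share the 9 other adult libraries, so that they are not independent of each other.

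**Figure D3:**
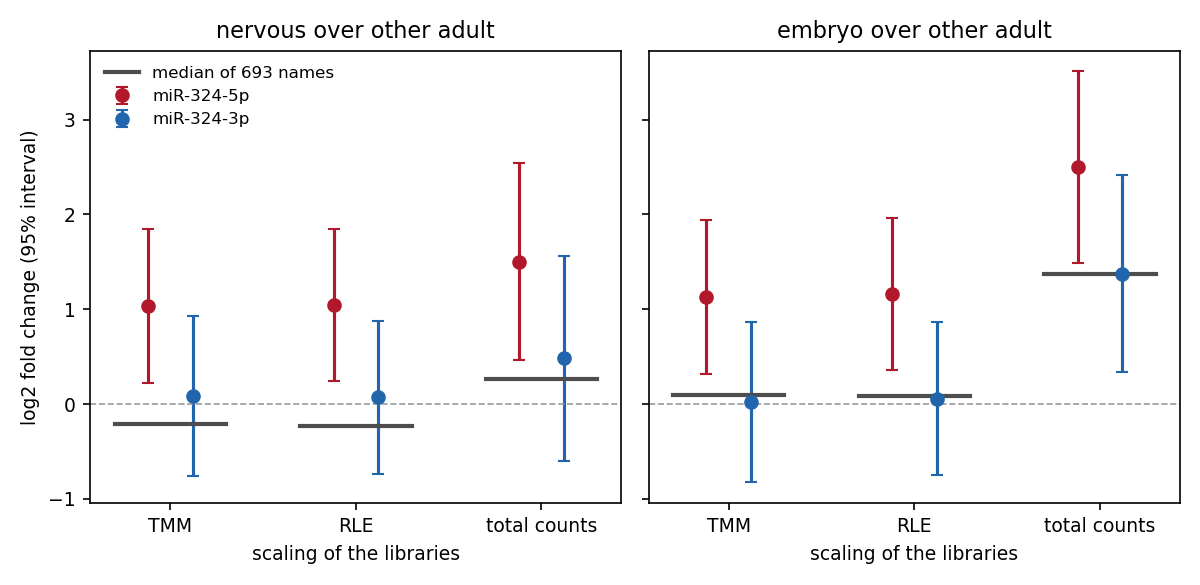
Log2 fold change of each arm in nervous over other adult libraries (left) and embryo over other adult libraries (right), with 95% intervals, under 3 scalings of the libraries, and the median over all 693 names tested (grey bars). With TMM the 5p arm is at 1.04 and 1.13 and the 3p arm near 0, and with total counts all values shift up with the median, in embryos to 2.50 and 1.38.

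The difference between the arms was tested directly as the change in the odds of 5p over 3p, over 238 hairpins that had 20 or more reads, both arms summed, in 8 or more libraries. In embryos these odds were 2.16-fold those in the other adult libraries, a log2 change of 1.11 ± 0.30 (SE, edgeR adjusted p = 0.0086), where 19.7% of hairpins were called. In nervous libraries the log2 change was 0.91 ± 0.30 (SE) and did not pass (edgeR adjusted p = 0.065), where 5.88% were called. Without stomach the nervous value passed (0.78, adjusted p = 0.043), and without the 17-day embryo the embryo value did not (1.04, adjusted p = 0.052). The hairpin was chosen with its arm usage in these libraries known, so that these values are no independent evidence.

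Pairs of single libraries showed more than 1 way to a changed share. Brain had more of both arms than eye, by a ratio of 2.96 (2.66 to 3.29) for the 5p arm and 1.91 (1.71 to 2.13) for the 3p arm in RPM, and by 2.16 and 1.39 in TMM-scaled CPM. Spinal cord had 2.21 times the 5p arm of eye (1.96 to 2.48) and 1.25 times its 3p arm (1.09 to 1.42) in RPM. On the TMM scale the same ratios were 1.34 (1.20 to 1.51) and 0.759 (0.667 to 0.864), so that the sign of the 3p difference turned with TMM. With RLE they were 1.68 (1.50 to 1.89) and 0.951 (0.836 to 1.08), the last with an interval that takes in 1. Brain against spinal cord gave 1.34 (1.23 to 1.46) for the 5p arm and 1.53 (1.37 to 1.71) for the 3p arm in RPM, and the TMM scale kept both above 1 at 1.61 and 1.84.

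Stomach was the library with the lowest 5p share (26.3%, exact Clopper-Pearson 95% interval 21.9 to 31.1%). Its arms differed in opposite directions from lung, spleen, kidney, eye and spinal cord in RPM. Against lung, where both arms were level, stomach had 2.11 times the 3p arm (1.81 to 2.47) and 0.740 times the 5p arm (0.588 to 0.925) in RPM. In TMM-scaled CPM these ratios were 1.75 (1.50 to 2.05) and 0.614 (0.487 to 0.768). Against spleen they were 1.64 (1.40 to 1.92) and 0.772 (0.607 to 0.973) in RPM, and against kidney 1.30 (1.10 to 1.53) and 0.534 (0.420 to 0.675). Against the library labelled smooth muscle they were 1.85 (1.56 to 2.19) for the 3p arm and 0.794 for the 5p arm, the last with an interval of 0.619 to 1.01 that takes in 1, though not on the TMM scale (0.536, 0.418 to 0.682). The 3p level of stomach ranked 6 among the 15 libraries in RPM and 1 in TMM-scaled CPM, and its 5p level ranked 13 on both.

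Liver, with the next lowest 5p share (32.8%, 27.0 to 39.0%), differed from lung mainly in the 5p arm. It had 0.332 times the 5p arm of lung (0.259 to 0.422) and 0.693 times the 3p arm (0.575 to 0.830) in RPM. On the TMM scale the 5p ratio was 0.464 (0.361 to 0.589) and the 3p ratio 0.966 (0.802 to 1.16), which takes in 1. Heart and liver had 5p levels that did not differ beyond counting error in RPM, but liver had 1.69 times the 3p arm of heart (1.35 to 2.12). The 5p ratio of liver to heart was 0.758 on the TMM scale (0.571 to 0.9995) and 0.761 with RLE (0.573 to 1.004), so that only the TMM interval excluded 1. Heart was low in both arms in RPM, with a 5p share of 49.3% (43.5 to 55.2%), against 50.4% (47.0 to 53.9%) in lung. On the TMM scale heart still ranked 14 of the 15 libraries for the 5p arm and 15 for the 3p arm.

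Across the 3 embryo stages both arms were highest at day 11. The 15-day embryo had 0.635 times the 5p arm of the 11-day embryo (0.588 to 0.685) and 0.569 times its 3p arm (0.518 to 0.626) in RPM. Day 17 against day 11 gave 0.727 (0.678 to 0.781) for the 5p arm and 0.602 (0.551 to 0.657) for the 3p arm. On the TMM scale these ratios were 0.741 and 0.665 for day 15, and 0.771 and 0.638 for day 17, all with intervals below 1. Day 17 against day 15 gave a 5p ratio of 1.15 (1.07 to 1.23) in RPM, but 1.04 (0.967 to 1.12) on the TMM scale, and the 3p ratios of 1.06 and 0.959 had intervals that take in 1. With RLE the 5p ratio was 1.19 (1.11 to 1.28) and the 3p ratio 1.10 (1.001 to 1.21), so that this difference depended on the scaling. The labels' title and source field disagree on the day of the 17-day embryo, and the title was used.

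**Figure D4:**
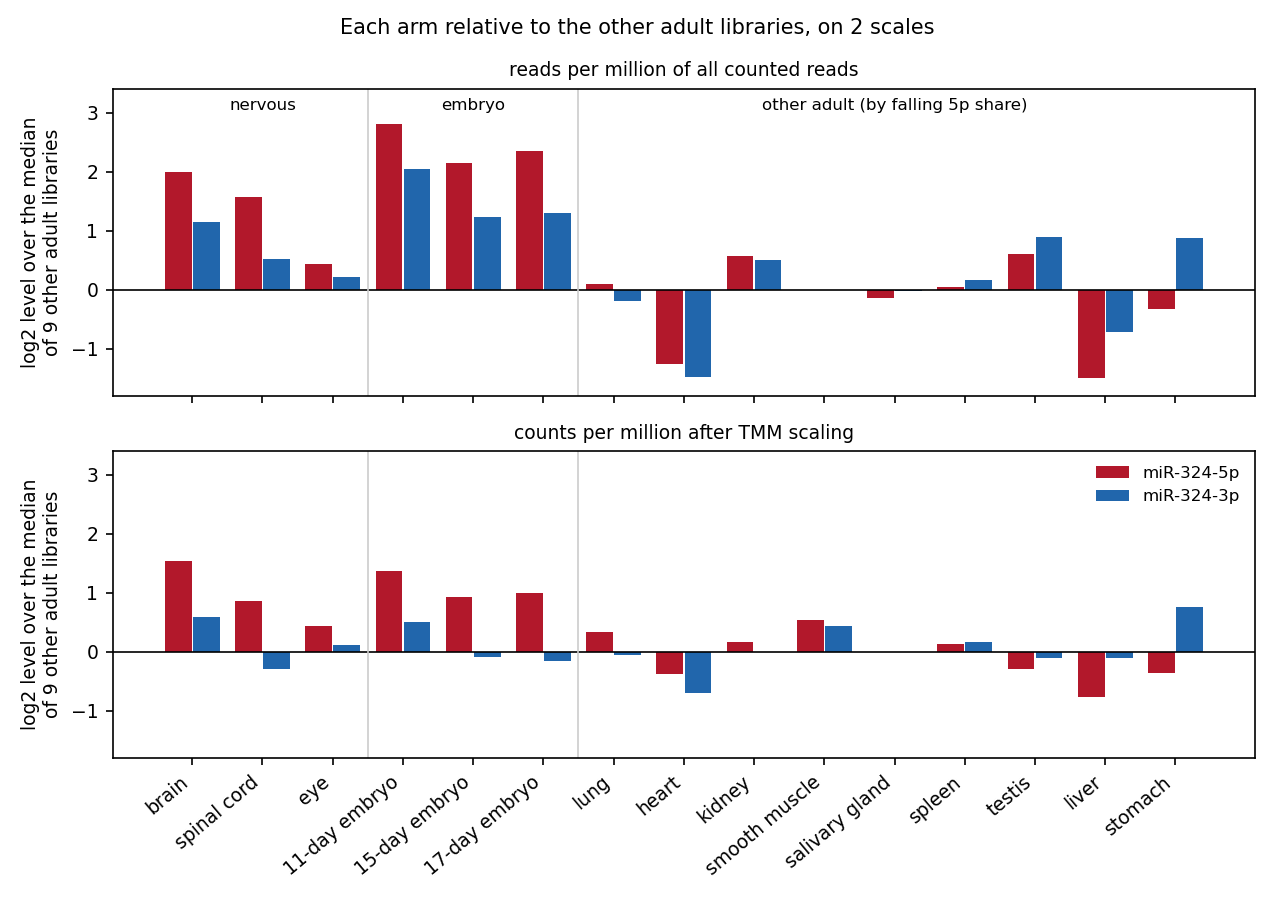
Log2 level of each arm in each library over the median of the 9 other adult libraries, in RPM (top) and in TMM-scaled CPM (bottom). In stomach the 3p bar is positive and the 5p bar negative on both scales (0.89 and -0.33 in RPM). In the 17-day embryo the 5p bar stays positive on the TMM scale (0.99) while the 3p bar is below 0 (-0.15).

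Counted over all 105 pairs of libraries in RPM, both arms differed beyond counting error in the same direction in 76 pairs and in opposite directions in 5. All 5 opposite pairs set stomach, with 97 reads of the 5p arm, against lung, spleen, kidney, eye or spinal cord. The 5p arm alone had an interval that excludes a ratio of 1 in 11 pairs, the 3p arm alone in 8, and neither in 5. On the TMM scale the arms moved together in 37 pairs and apart in 23, with the 5p arm alone in 27, the 3p arm alone in 8 and neither in 10. The pairs share libraries and are not independent.

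The position of each arm among all detected names does not depend on scaling. In brain miR-324-5p ranked 145 and miR-324-3p 188 of 1047 names, and in spinal cord 187 and 227 of 1065. In the embryos of day 11, 15 and 17 the 5p arm ranked 166, 200 and 194, and the 3p arm 197, 226 and 238. The order was turned round in all other adult libraries except lung, where the 5p arm ranked 176 and the 3p arm 178. In stomach the 3p arm ranked 150 and the 5p arm 211 of 813 names, and in liver these ranks were 172 and 208 of 753. Eye had ranks of 204 for the 5p arm and 199 for the 3p arm.

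The 5 names whose log2(RPM + 1) pattern over the 15 libraries was most like that of miR-324-5p were miR-421-3p (r = 0.932), miR-6944-3p (0.930), miR-181d-5p (0.911), miR-412-5p (0.908) and miR-380-3p (0.904), the last 2 from the imprinted Dlk1-Dio3 region. All have higher RPM in embryos than in any other adult library, as miR-421-3p with 134 to 286 RPM against 14.5 to 67.0 RPM. The partner arm, miR-324-3p, came at rank 32 of 692 names (r = 0.882). For miR-324-3p the names were miR-188-3p (0.901), miR-532-3p (0.888), miR-324-5p (0.882), miR-501-5p (0.871) and miR-877-5p (0.861). These correlations share the library totals and the high RPM of embryos. Some also rest on few reads. In the other adult libraries miR-188-3p had 0.76 to 10.8 RPM, and miR-412-5p and miR-6944-3p had 0 to 6.75 RPM.

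let-7 restrains growth genes late in development, and several of its precursors are known to be uridylated by TUT4 and TUT7 in human cells. The list of 7 strands used here for such precursors held let-7a-5p, let-7b-5p, let-7d-5p, let-7f-5p, let-7g-5p, let-7i-5p and miR-98-5p, and left out let-7c-5p, let-7e-5p and let-7j. In nervous libraries 0 of these 7 passed the edgeR test, where 41.0% of all names were called and 12.6% as lower, and 0 of the 7 had an unadjusted p under 0.05. Their median log2 fold change was -0.43 with TMM, against -0.205 over all names, and 0.16 with totals, so that its sign turned with the scaling.

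Outside the list, let-7j fell in nervous libraries (-4.49 ± 1.31 SE, edgeR adjusted p = 0.013), let-7e-5p had a value of 1.19 ± 0.47 (SE, adjusted p = 0.053) and let-7c-5p one of -0.27 ± 0.47 (SE, adjusted p = 0.65). The result for nervous libraries thus depends on which strands are counted. These 3 strands were added after their values were seen.

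In embryos 5 of the 7 fell and 0 rose, where 17.2% of all names were called lower, with a median log2 fold change of -2.47 against 0.10 over all names. Of the 7, let-7b-5p had the largest change, -4.15 ± 0.70 (SE, edgeR adjusted p = 0.00017), whereas let-7i-5p had a value of -1.15 ± 0.64 (SE, adjusted p = 0.15). Outside the list, let-7c-5p fell (-2.92 ± 0.56 SE, edgeR adjusted p = 0.00055), as did let-7j (-4.56 ± 1.30 SE, adjusted p = 0.0091), and let-7e-5p had a value of -0.15 ± 0.50 (SE, adjusted p = 0.83). With totals 4 of the 7 fell, where 6.06% of all names were called lower against 8.08% in nervous libraries, and 5 of the 7 had a negative value. let-7 strands differ from each other by few bases, and how reads that match several of them were counted was not stated.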

How the data were processed

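Small RNA reads were counted in 15 mouse libraries, 1 per tissue or stage. The authors deposited raw read counts per mature miRNA name, per the file headers. bcl2fastq 1.8.4, cutadapt, BWA and bedtools with build mm10 are named in the submitters' processing notes, whereas their options, the miRNA annotation used and the treatment of multi-mapped reads were not stated. The spike-in RNAs that the labels' protocols mention were not used here. A name not listed in a library was taken as 0 reads. PCR copies are not separate molecules, so that intervals cover counting error only.

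RPM values used all counted reads of a library. Class comparisons used edgeR 4.0.16 in R 4.3.3 (TMM, filterByExpr, glmQLFit, glmQLFTest) on all 15 libraries with 3 classes, and p-values were adjusted by Benjamini-Hochberg over all 693 names, with a threshold of 0.05. CPM values are relative to the scaled library size. The filter removed 13.1% of testis reads and at most 0.215% elsewhere. Standard errors are the log2 fold change over the square root of F. Arm usage was fitted to the counts of both arms, with 1 term for each library. p-values measure the spread between tissues of a class, not between animals, and it may be technical. DESeq2 1.42.0 and limma 3.58.1 served as alternatives. Ratios of 2 libraries have exact conditional binomial intervals. Both fits were tested on simulated data. The hairpin was folded with RNAfold.

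Beside both arms, the text names the 5 names most correlated with each arm and a let-7 list, with 3 let-7 strands outside it. Arms, lists and tests were chosen with earlier results of these data known.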

Additional observations from a re-analysis of the deposited data

How the results depend on the processing

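Depth limits testis most, since a count of 3 there stands for 20.3 RPM, against 0.949 RPM in brain. Libraries could not be paired across classes, because the classes hold different tissues or stages with 1 library each. The arm usage fit did pair both arms within each library. The log2 fold change of miR-324-5p in nervous libraries did not pass the threshold without the filter on low counts (1.27, edgeR adjusted p = 0.077) or with only 12 libraries in the fit (0.93, adjusted p = 0.086), and that of miR-324-3p changed sign with 12 libraries (-0.028). In embryos miR-324-3p passed with totals (1.38), where the median of all names moved with it. With TMM and RLE the SD of the log2 level was 0.676 and 0.684 for miR-324-5p and 0.373 and 0.349 for miR-324-3p, and r between the arms was 0.312 and 0.315. Of 30 levels, 27 lay outside their counting interval after TMM scaling.

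Leaving out 1 library at a time gave 0.60 to 1.30 for miR-324-5p in nervous libraries (edgeR adjusted p 0.030 to 0.35), and the call was lost without brain, spinal cord, heart, liver, salivary gland, stomach or any of the 3 embryos. For miR-324-5p in embryos the range was 0.84 to 1.22 (adjusted p 0.018 to 0.18). For miR-324-3p the ranges were -0.25 to 0.19 in nervous libraries and -0.36 to 0.15 in embryos, with a changed sign in 4 and 6 of 15 fits and no call. The log2 odds of 5p over 3p ranged from 0.74 to 1.15 in nervous libraries and from 0.98 to 1.18 in embryos. Names called ranged from 186 (without brain) to 303 in nervous libraries and from 255 to 343 in embryos. The SD ranged from 1.19 to 1.34 for miR-324-5p and from 0.728 to 0.912 for miR-324-3p, and r from 0.846 to 0.941. The cause of a changed call was not tested. Of 126 alternatives to the tested fold changes and odds, 96 kept direction and call, 17 lost a call, 2 gained one and 11 changed sign. Of 95 alternatives to the SDs, r and counts of names called, 7 moved.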
